A study of Mus musculus with 6 samples.

Results

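The *Dlx* and *Msx* genes encode homeodomain transcription factors, and their mRNA levels were compared here in the calvaria, the roof of the skull, of heterozygous and homozygous *Tmem53* mutant mouse pups. The genes were taken by symbol from the deposited expression table, which gave 8 genes, *Dlx1* to *Dlx6*, *Msx1* and *Msx2*, of 32350 entries. All 8 were found, and 7 of them reached the level set for testing, as 13535 of all entries did. The samples were 3 *Tmem53*+/- and 3 *Tmem53*-/- calvaria of strain B6N at postnatal day 3, and 1 RNA library was made from each. The mutant animals carried frameshift alleles made by CRISPR/Cas9 gene editing, of which 3 lines were established. The comparison animals were heterozygous siblings that carry 1 mutant allele themselves, so that no wild-type calvaria entered any comparison. *Tmem53* encodes a nuclear envelope membrane protein, and the study asked what its loss changed in the calvaria, in particular in bone formation and in bone morphogenetic protein (BMP) signaling.

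*Dlx* genes are the vertebrate relatives of *Distal-less* and *Msx* genes those of *muscle segment homeobox*, both first described in the fly. In mammals the *Dlx* genes lie in pairs, *Dlx1* with *Dlx2*, *Dlx3* with *Dlx4* and *Dlx5* with *Dlx6*, and the genes of a pair point towards each other and share enhancers. Members of both families respond to BMPs in the head skeleton. There *Dlx5* and *Dlx3* are known as activators of osteoblast genes, whereas *Msx2* is known for keeping cells of the sutures undifferentiated and for opposing DLX5 on shared target sites.

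The members share the homeobox, the stretch that encodes the DNA-binding homeodomain. Its last part, codons 41 to 60, is shown for 7 of the genes because it holds the helix that reads DNA. The sequences are from the GENCODE M21 transcripts on GRCm38, from 5′ to 3′, and capitals mark the 18 bases that encode the core of the recognition helix.
Dlx1: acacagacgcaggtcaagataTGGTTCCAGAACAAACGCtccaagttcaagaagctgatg
Dlx2: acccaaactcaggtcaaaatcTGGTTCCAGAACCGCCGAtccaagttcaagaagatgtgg
Dlx3: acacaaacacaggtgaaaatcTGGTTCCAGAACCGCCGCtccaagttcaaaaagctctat
Dlx4: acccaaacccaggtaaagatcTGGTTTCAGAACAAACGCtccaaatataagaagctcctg
Dlx5: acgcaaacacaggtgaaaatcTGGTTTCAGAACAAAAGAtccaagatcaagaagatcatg
Dlx6: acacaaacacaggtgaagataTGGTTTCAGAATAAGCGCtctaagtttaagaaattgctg
Msx2: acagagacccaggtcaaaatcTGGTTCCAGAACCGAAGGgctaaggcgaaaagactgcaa
Over the 180 bases of the homeobox, any 2 *Dlx* genes had the same base at 66.1% to 81.7% of positions, with *Dlx2* and *Dlx3* the most alike of the 15 pairs. *Msx1* and *Msx2* were the same at 82.2% of positions, and a *Dlx* and an *Msx* gene at 54.4% to 65.0%. Of all 28 pairs, the longest run of bases shared by both transcripts was 44, which is shorter than the sequenced reads by the study's methods.

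FPKM are the fragments of a gene scaled to its exon length and to all fragments mapped in the library. They summed to between 569846 and 611928 per library, which that scaling keeps similar and which does not measure library size. The depth of a library relative to heterozygous replicate 1, read from the steps between low values, lay between 0.867 and 1.2. Across all genes tested, heterozygous replicate 2 and mutant replicate 3 each stood apart from the other libraries of their genotype, with correlations of at most 0.957 and 0.959 against 0.991 and 0.982 between the other libraries of each group. The sexes were also unevenly spread. *Xist*, transcribed from the inactive X chromosome, was at 102, 0.0430 and 102 FPKM in heterozygous replicates 1 to 3 and at or below 0.0409 FPKM in the mutants. *Ddx3y*, a gene of the Y chromosome, was at 36.0 FPKM in heterozygous replicate 2, at 27.3 to 31.9 FPKM in the mutants and at or below 0.030 FPKM in the other libraries. Only heterozygous replicate 2 was therefore male among the heterozygous pups, and all mutants were male, so that sex and genotype overlap in 5 of the 6 libraries. The mRNA of *Tmem53* itself was at 6.92 ± 0.469 FPKM (SD, n = 3) in heterozygous and 11.6 ± 2.04 FPKM (n = 3) in mutant calvaria (limma adjusted p = 0.0400). A frameshift allele can still be transcribed, and this level is no check of the genotype.

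Between the genotypes, *Dlx5* was the 1 member called. It rose in the mutants, where 3.44% of all genes tested were called higher, 3.63% lower and 7.06% in either direction. A call means a limma p under 0.05 on log2(FPKM + 0.5) after Benjamini-Hochberg adjustment. Of all genes tested, 956 were called, and between 14 and 2216 with 1 library left out, so that many calls of single genes hang on 1 library. Of the other members, *Dlx3* and *Dlx6* also had every mutant library above every heterozygous one, which 21.2% of all genes tested had. The opposite order, seen in 16% of all genes tested, was seen in 0 members. *Msx1* and *Msx2* were not called, and their groups overlapped. The median log2 fold change was 0.98 over the 7 members tested and 0.05 over all genes tested. *Dlx1* and *Dlx3* reached the level for testing only through the mutants, their heterozygous means being under 0.5 FPKM, so this median describes the members and supports nothing. In bulk tissue, a change in the share of cells that express a gene and a change in the level per cell cannot be told apart, and this holds for every value below.

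**Figure D1:**
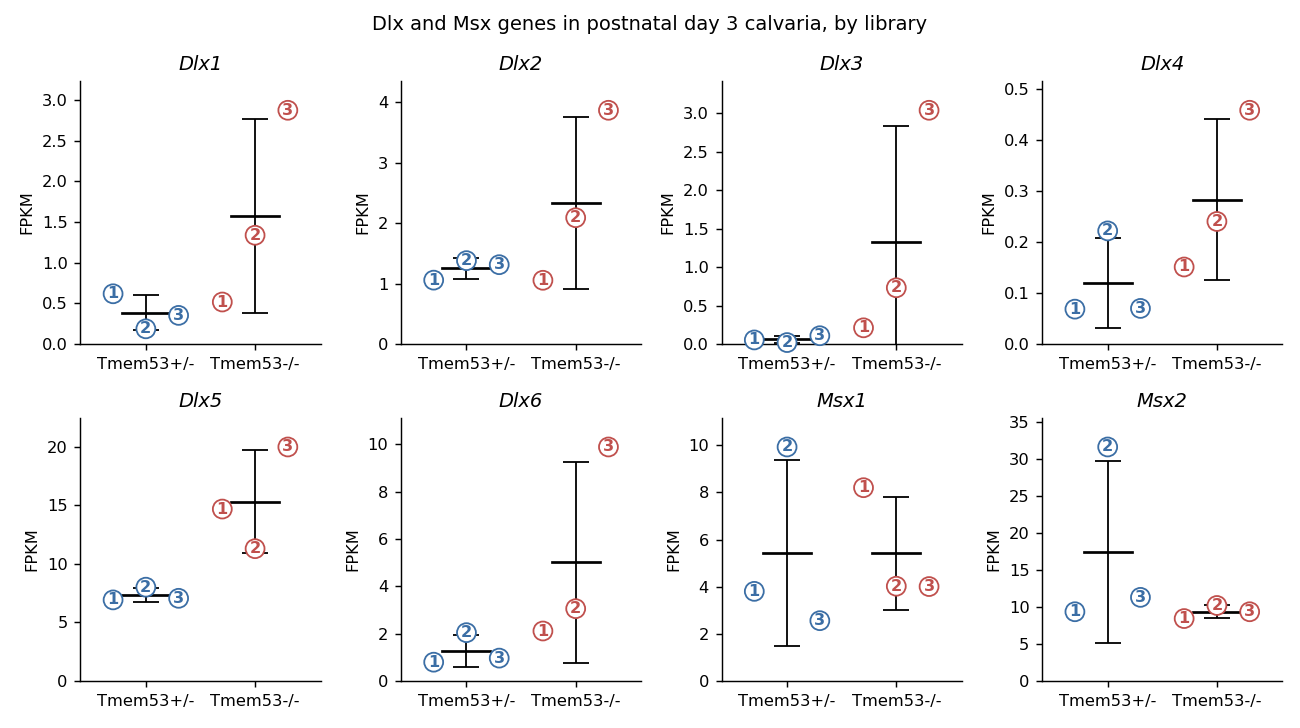
FPKM of each member in each library, with 1 panel per gene and its own linear axis from 0. Numbered circles are the replicates, thick bars the group means and thin bars the SD (n = 3 per group, cut off at 0 for *Dlx3*). All 6 *Dlx* genes are highest in mutant replicate 3, and both *Msx* genes are highest in heterozygous replicate 2.

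*Dlx5* is the member best known from bone. It is expressed in osteoblasts and their precursors, and mice without it have delayed ossification of the skull. In the deposited table it lies on chromosome 6 from 6827804 to 6832070 (NCBI build37.2). *Dlx5* was at 6.92, 8.0 and 7.06 FPKM in heterozygous replicates 1 to 3. In mutant replicates 1 to 3 it reached 14.7, 11.3 and 20.0 FPKM. The 3 heterozygous pups lay close together, and the lowest mutant library was above the highest of them. The mean rose from 7.33 ± 0.591 to 15.3 ± 4.38 FPKM (SD, n = 3 each), a ratio of 2.09. The log2 fold change was 0.98 ± 0.203 (SE), with a 95% confidence interval of 0.49 to 1.47 and a limma adjusted p of 0.0427. An exact two-sided permutation test gave p = 0.1, the smallest that 3 against 3 libraries allow.

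The call of *Dlx5* sat close to its threshold. It was lost without heterozygous replicate 1 (limma adjusted p = 0.151), heterozygous replicate 3 (0.140), mutant replicate 1 (0.130) or mutant replicate 2 (0.0510), and kept without heterozygous replicate 2 (0.0450) or mutant replicate 3 (0.0465). Its log2 fold change stayed between 0.78 and 1.17 in these fits. With the sex of the pups as a term, which sets the mutants against the 1 male heterozygous library, it was 0.86 (limma adjusted p = 0.126).

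*Dlx6*, the partner of *Dlx5*, acts with it in the patterning of the jaw and in bone formation. The table gives it the span 6770545 to 6819533 on chromosome 6, which is also that of its antisense entry and lies 8271 bases from *Dlx5*. *Dlx6* was at 0.792, 2.04 and 0.964 FPKM in the heterozygous libraries. It was at 2.11, 3.05 and 9.89 FPKM in the mutant libraries. The groups did not overlap, but heterozygous replicate 2 and mutant replicate 1 were almost level, and mutant replicate 3 was far above the rest. The means were 1.27 ± 0.677 and 5.02 ± 4.25 FPKM (SD, n = 3 each), and the log2 fold change of 1.44 ± 0.542 (SE; 95% confidence interval 0.14 to 2.75) did not pass the test (limma adjusted p = 0.148). With heterozygous replicate 2 and mutant replicate 3 both left out, an alternative chosen after seeing the data, the log2 fold change was 1.15 with a limma adjusted p of 0.0160, and *Dlx5* had 0.84 with 0.0142. In that fit 3675 of the 13535 genes tested were called, against 956 with all libraries, so passing there says little about these 2 genes.

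*Dlx3* activates osteocalcin and other osteoblast genes, and its mutation in people thickens the skull and alters teeth and hair. It spans 94981430 to 94986607 on chromosome 11 in the table. *Dlx3* was at 0.0554, 0.0213 and 0.110 FPKM in the heterozygous libraries, the lowest mean of all members there. It was at 0.213, 0.732 and 3.03 FPKM in the mutant libraries. All mutant libraries were above all heterozygous ones, and the mutants themselves differed widely. The log2 fold change was 1.38 ± 0.559 (SE; 95% confidence interval 0.03 to 2.72) and did not pass the test (limma adjusted p = 0.171). The added 0.5 FPKM understates the change of a gene this low.

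The heterozygous *Dlx3* values may rest on few fragments. After scaling by the relative depth of the libraries, they were 3, 1 and 7 times the smallest value, and the mutant values were 11.5, 38.5 and 197 times it. If the smallest value is 1 fragment, the heterozygous libraries held between 1 and 7 fragments of *Dlx3*, and no ratio of the means is given for that reason. The study reported *Dlx3* and *Dlx5* as BMP targets significantly raised in these same libraries, which it compared by Cuffdiff on reads. Their direction here is therefore not independent of that report. *Dlx3* did not pass the limma test on FPKM used here, and the methods were not compared.

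*Dlx4*, the other gene of the *Dlx3* pair, is the least studied member and is best known from the placenta. It spans 95001760 to 95020361 on chromosome 11, 15153 bases from *Dlx3*, and shares that span with the entry *A730090H04Rik*. *Dlx4* was at 0.0686, 0.222 and 0.0701 FPKM in the heterozygous libraries. It was at 0.151, 0.240 and 0.458 FPKM in the mutant libraries. Heterozygous replicate 2 lay inside the mutant range. *Dlx4* averaged 0.202 FPKM over the 6 libraries, under the 0.5 FPKM set for testing, and its difference of 0.33 on the log2(FPKM + 0.5) scale had an exact permutation p of 0.2. In the fit without a filter its limma adjusted p was 0.313.

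*Dlx1* and *Dlx2* are needed for the skeleton of the upper jaw and for interneurons of the forebrain. In the table their spans lie 5516 bases apart on chromosome 2. That of *Dlx1*, 71367096 to 71375948, is also that of its antisense entry, and *Dlx2* runs from 71381464 to 71384811. *Dlx1* was at 0.619, 0.189 and 0.354 FPKM in the heterozygous libraries. It was at 0.518, 1.34 and 2.87 FPKM in the mutant libraries. Mutant replicates 2 and 3 were above all heterozygous libraries, while mutant replicate 1 was among them. The log2 fold change was 1.09 ± 0.446 (SE; 95% confidence interval 0.01 to 2.16), and it did not pass the test (limma adjusted p = 0.175). Its heterozygous mean of 0.387 FPKM was under the level set for testing, which it reached through the mutants.

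*Dlx2* showed the same order of the mutant libraries. It was at 1.06, 1.38 and 1.31 FPKM in the heterozygous libraries. It was at 1.06, 2.09 and 3.87 FPKM in the mutant libraries. Mutant replicate 1 was level with the lowest heterozygous library, and the other mutants were above the heterozygous range. The log2 fold change of 0.58 ± 0.363 (SE; 95% confidence interval -0.30 to 1.45) did not pass the test (limma adjusted p = 0.345). Without mutant replicate 3 it was 0.20.

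The genes that mark interneurons were at or near 0. Of 8 such genes, 7 averaged under 0.5 FPKM, with *Gad1* and *Gad2*, the enzymes that make the transmitter GABA, at no more than 0.0137 FPKM in any library. Their sum was between 4.28 and 8.83 FPKM in heterozygous and between 0.524 and 3.45 FPKM in mutant libraries, with *Npy* the highest of them in every library. Of 10 genes of epidermis and hair follicle, where *Dlx3* is also expressed, 8 averaged under 0.5 FPKM. The keratins of the basal layer, *Krt5* and *Krt14*, stayed at or below 0.0879 FPKM. The sum of that list was between 2.69 and 3.25 FPKM in heterozygous and between 3.59 and 11.2 FPKM in mutant libraries, and most of the difference was *Trp63*, at 9.0, 4.61 and 1.35 FPKM in mutant replicates 1 to 3. The order of the mutants in *Trp63* was the opposite of that in *Dlx3*.

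*Msx2* is the member most closely tied to the skull vault, and in people both gain and loss of its function disturb the sutures and the closure of the parietal bones. It spans 53562249 to 53568149 on chromosome 13 in the table. *Msx2* was at 9.34, 31.6 and 11.3 FPKM in the heterozygous libraries. It was at 8.41, 10.2 and 9.33 FPKM in the mutant libraries. Heterozygous replicate 2 stood far above the other 5 libraries, which lay within a narrow range. The log2 fold change of -0.66 ± 0.430 (SE; 95% confidence interval -1.70 to 0.37) did not pass the test (limma adjusted p = 0.357), and it was -0.14 without heterozygous replicate 2. With sex as a term, which leaves that same library as the comparison for the mutants, it was -1.71 (limma adjusted p = 0.0131). That call rests on 1 library.

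*Msx1* is needed for teeth and palate and is expressed in the growing bones of the skull. The table gives it the span 38211729 to 38215824 on chromosome 5, which is also that of its antisense entry. *Msx1* was at 3.80, 9.93 and 2.56 FPKM in the heterozygous libraries. It was at 8.20, 4.02 and 4.01 FPKM in the mutant libraries. Its highest value was again in heterozygous replicate 2, and the mutant values lay within the heterozygous range. The means of 5.43 ± 3.95 and 5.41 ± 2.42 FPKM (SD, n = 3 each) were almost equal. On the log2 scale they differed by 0.12 ± 0.493 (SE), with a limma adjusted p of 0.9. Its 95% confidence interval of -1.06 to 1.31 leaves room for a difference of about the size of that of *Dlx5* in either direction. The sign of the difference turned with the setting, to -0.89 with sex as a term and to -0.25 without heterozygous replicate 3.

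**Figure D2:**
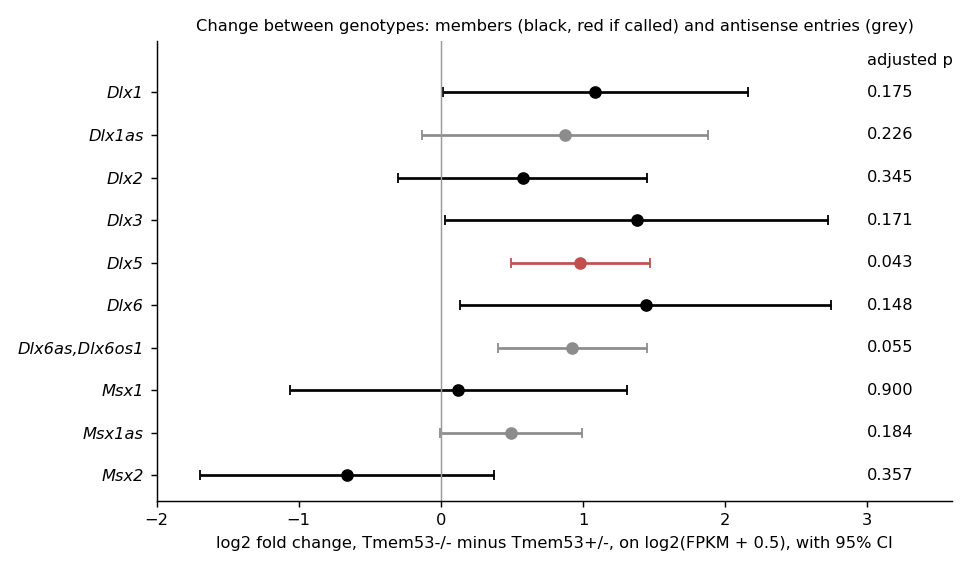
Log2 fold change (mutant minus heterozygous, on log2(FPKM + 0.5)) of the members tested and of their antisense entries, with 95% confidence intervals and limma adjusted p. The *Dlx5* interval, 0.49 to 1.47, lies farthest from 0 among the members tested, whereas those of *Dlx2*, *Msx1* and *Msx2* include 0.

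The order of the members by level differed between the genotypes. In heterozygous calvaria the order by mean FPKM was *Msx2*, *Dlx5*, *Msx1*, *Dlx6*, *Dlx2*, *Dlx1*, *Dlx4* and *Dlx3*, and of the neighbours in it only *Msx2* and *Dlx5*, *Msx1* and *Dlx6*, and *Dlx2* and *Dlx1* had ranges that did not overlap. In mutant calvaria *Dlx5* came first, then *Msx2*, *Msx1*, *Dlx6*, *Dlx2*, *Dlx1*, *Dlx3* and *Dlx4*, where only *Dlx5* and *Msx2*, and *Msx2* and *Msx1*, had ranges that did not overlap. The ratio of *Dlx5* to *Msx2*, a comparison chosen after the values were seen, was 0.741, 0.253 and 0.626 in the heterozygous libraries. It was 1.74, 1.11 and 2.14 in the mutant libraries. *Msx2* was thus above *Dlx5* in every heterozygous library and below it in every mutant one.

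The 6 *Dlx* genes summed to 9.51, 11.9 and 9.87 FPKM in heterozygous and to 18.7, 18.7 and 40.1 FPKM in mutant libraries. *Dlx5* made up 72.7%, 67.5% and 71.5% of that sum in the heterozygous and 78.4%, 60.2% and 49.8% in the mutant libraries. *Dlx6* was 8.32%, 17.2% and 9.77% of the sum in the heterozygous and 11.3%, 16.3% and 24.7% in the mutant libraries. *Dlx5* was the main *Dlx* mRNA in all 6 libraries, and the other *Dlx* genes took their largest share in mutant replicate 3. All 6 *Dlx* genes had their highest value in that library, as 27.2% of all genes tested did. Both *Msx* genes had theirs in heterozygous replicate 2, as 26.5% of all genes tested did, and summed to 41.5 FPKM there against 13.1 to 16.6 FPKM in the other libraries.

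The members of a pair were also compared with each other. Over 4 pairs, the log2 ratio of *Dlx1* to *Dlx2* went from -1.01 ± 0.491 in heterozygous to -0.49 ± 0.120 in mutant libraries (SD, n = 3 each; exact permutation p = 0.3). That of *Dlx3* to *Dlx4* went from -0.14 ± 0.297 to 0.92 ± 0.891 (n = 3 each; exact permutation p = 0.1). The ratios of *Dlx5* to *Dlx6* and of *Msx1* to *Msx2* differed by -0.46 (exact permutation p = 0.6) and 0.79 (exact permutation p = 0.2). None of the 4 could pass at 3 against 3, where the smallest p is 0.1, and the Benjamini-Hochberg adjusted values were 0.4 to 0.6. This test therefore cannot show a difference in response within a pair.

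**Figure D3:**
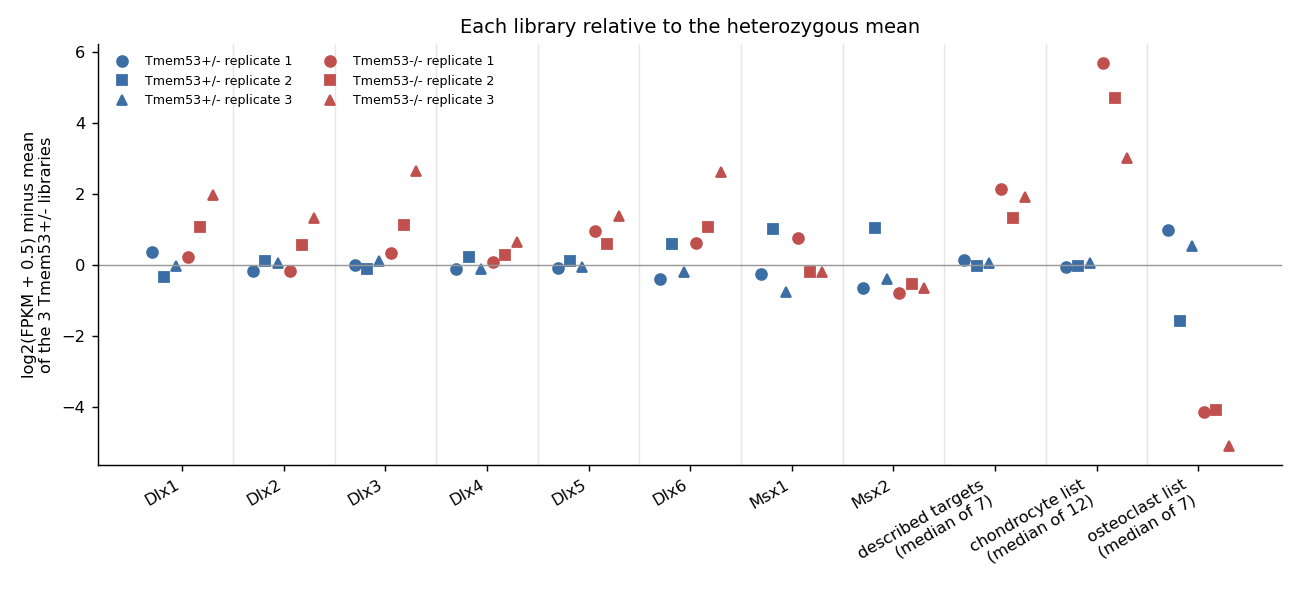
Log2(FPKM + 0.5) of each library minus the mean of the 3 heterozygous libraries, for each member and for the median gene of the described targets (7 genes) and of the chondrocyte (12) and osteoclast (7) lists. Mutant replicate 3 is the highest for every *Dlx* gene but the lowest mutant for the chondrocyte list, with 3.02 against 4.69 and 5.68.

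*Dlx1*, *Dlx6* and *Msx1* share their locus with an antisense entry, and the sources used here do not state whether strand was used in counting, so that reads of the 2 entries cannot be told apart. *Dlx1as* was at 0.609, 0.138 and 0.335 FPKM in heterozygous and at 0.515, 0.785 and 2.29 FPKM in mutant libraries, and the ratio of *Dlx1* to it stayed between 1.01 and 1.70. The *Dlx6* antisense entry, *Dlx6as,Dlx6os1*, was at 0.292, 0.227 and 0.156 FPKM in heterozygous and at 0.738, 0.677 and 1.28 FPKM in mutant libraries. Its groups did not overlap, and its log2 fold change of 0.93 ± 0.217 (SE) did not pass the test (limma adjusted p = 0.0551). This entry and *Dlx1as*, with heterozygous means of 0.225 and 0.361 FPKM, were tested only through their level in the mutants. *Msx1as* was at 4.57, 5.61 and 4.03 FPKM in heterozygous and at 9.20, 5.95 and 5.74 FPKM in mutant libraries. It did not overlap between the groups while *Msx1* did, its log2 change was 0.49 with a limma adjusted p of 0.184, and the ratio of *Msx1* to it ranged from 0.634 to 1.77.

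Of the nearest entries around the members, 2 were called, where 7.06% of all genes tested were called in either direction. So few entries were tested that this count supports nothing about these loci. *Itga3*, an integrin subunit 43402 bases from *Dlx3*, was at 0.726, 0.854 and 0.950 FPKM in heterozygous and at 5.61, 3.10 and 2.84 FPKM in mutant libraries (log2 fold change 1.64, limma adjusted p = 0.0230). Its mutant libraries stood in the opposite order to those of *Dlx3*. *Cytl1*, a secreted protein known from cartilage, lies 80670 bases from *Msx1* and was listed at 0, 0.0664 and 0 FPKM in heterozygous and at 14.5, 34.8 and 3.50 FPKM in mutant libraries (limma adjusted p = 0.0255). *Cytl1* was tested only through its level in the mutants. The neighbours of the *Dlx5* and *Dlx6* pair, *Shfm1* and *Acn9*, were not called, with log2 fold changes of 0.01 (limma adjusted p = 0.976) and 0.49 (limma adjusted p = 0.399). *LOC100503424*, before *Dlx1*, had 0.03 (limma adjusted p = 0.877), and *A730090H04Rik*, *Gm1631*, *Tac4*, *Gm2762*, *Drd1a* and *LOC100504083* were too low to be tested.

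BMPs bind receptors that phosphorylate SMAD proteins, and antagonists such as noggin trap the ligand outside the cell. Of 19 genes of this pathway, 17 were tested, 2 rose and 0 fell, beside 3.44% and 3.63% of all genes tested, and the median log2 fold change was 0.20. *Nog*, the antagonist noggin, was at 1.56, 3.61 and 1.80 FPKM in heterozygous and at 19.6, 8.87 and 7.43 FPKM in mutant libraries (log2 fold change 2.09, limma adjusted p = 0.0397). *Bmpr1a*, a type I receptor, rose from 23.8 ± 2.27 to 33.1 ± 2.30 FPKM (SD, n = 3 each; log2 fold change 0.47, limma adjusted p = 0.0495). The ligands *Bmp2* and *Bmp4* were not called, with log2 fold changes of 0.62 (limma adjusted p = 0.332) and -0.08 (limma adjusted p = 0.848). *Bmp2* was highest in mutant replicate 3, as the *Dlx* genes and 27.2% of all genes tested were. It was at 0.413, 0.366 and 1.71 FPKM in the mutants against at most 0.326 FPKM in the heterozygous libraries. This order of *Bmp2* was picked for its values, and the gene was tested only through its level in the mutants. *Nog* and *Bmp5*, by contrast, were highest in mutant replicate 1. Neither *Nog* nor *Bmpr1a* was called without heterozygous replicate 1, heterozygous replicate 3, mutant replicate 1 or mutant replicate 2. Each of these fits left 0 calls in the pathway, and 1 call was left without mutant replicate 3. With no filter on low values 0 were called, and 1 with sex as a term or with eBayes without a trend.

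A short list of genes for proteins that bind DLX or MSX factors held no called gene. The members themselves and *Runx2* were not on it. Of the 8 genes listed, 7 were tested and 0 passed in either direction by limma. At an unadjusted p under 0.05 there were also 0, and the median log2 fold change was 0.01. With sex as a term 1 was called lower, and without heterozygous replicate 2 1 was called higher. *Maged1*, which encodes a partner of DLX5 and MSX2, was at 207 ± 19.7 FPKM in heterozygous and 213 ± 4.63 FPKM in mutant calvaria (SD, n = 3 each). *Spen*, a co-repressor that binds MSX2, was at 5.59 ± 0.757 and 5.07 ± 0.244 FPKM (SD, n = 3 each).

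Osteoblast genes described as targets of DLX or MSX factors rose in 5 of 7 cases, and 0 fell, beside 3.44% and 3.63% of all genes tested. The study had already reported all 5 as raised in these same libraries. Their direction was thus known in advance, and the count supports nothing about DLX or MSX factors. *Runx2*, the master regulator of osteoblasts, was at 7.04, 7.01 and 7.42 FPKM in heterozygous and at 12.3, 12.6 and 16.3 FPKM in mutant libraries (log2 fold change 0.88, limma adjusted p = 0.0219). *Sp7*, which acts after *Runx2*, was at 5.15, 4.16 and 4.24 FPKM in heterozygous and at 11.7, 10.6 and 19.7 FPKM in mutant libraries (1.48, limma adjusted p = 0.0255). *Alpl*, the alkaline phosphatase of mineralizing cells, was at 42.3, 51.5 and 50.4 FPKM in heterozygous and at 138, 121 and 182 FPKM in mutant libraries (1.59, limma adjusted p = 0.0107). In these 3 genes, as in *Dlx5*, mutant replicate 3 was highest and the groups were clear of each other. *Bglap*, osteocalcin, rose from 0.914 ± 0.148 to 6.84 ± 1.97 FPKM (SD, n = 3 each; 2.35, limma adjusted p = 0.00664). *Ibsp*, bone sialoprotein, rose from 1.64 ± 0.883 to 71.9 ± 33.9 FPKM (SD, n = 3 each; 5.04, limma adjusted p = 0.00827). *Col1a1* and *Spp1* cannot be judged, since the table lists *Col1a1* at 0 in heterozygous replicate 2 and mutant replicate 3, and *Spp1* at 0 in all but heterozygous replicate 2 and mutant replicate 1. The count of 5 fell to 0 without heterozygous replicate 3, to 2 without heterozygous replicate 1 or mutant replicate 1, and to 3 without mutant replicate 2.

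Markers of other cell types moved between the genotypes as well. Of 12 chondrocyte genes 10 rose and 0 fell, beside 3.44% and 3.63% of all genes tested. *Matn1* and *Matn3*, with heterozygous means of 0.211 and 0.140 FPKM, were tested only through the mutants. The chondrocyte list summed to 150, 140 and 145 FPKM in heterozygous and to 5971, 3148 and 773 FPKM in mutant libraries. Of 10 osteoclast symbols, among which *Dcstamp* and *Tm7sf4* name the same gene, 7 were tested, 0 rose and 5 fell. *Oscar*, *Tm7sf4* and *Siglec15*, with mutant means of 0.215, 0.0167 and 0.0672 FPKM, were tested only through the heterozygous libraries. The list summed to 3868, 677 and 2761 FPKM in heterozygous and to 201, 225 and 334 FPKM in mutant libraries. Mutant replicate 3, where every *Dlx* gene was highest, had the smallest chondrocyte sum of the mutants, and heterozygous replicate 2, where both *Msx* genes were highest, had the smallest osteoclast sum of the heterozygous libraries. An osteoblast list held all the described targets. Of its 10 genes 6 rose and 0 fell, and 0 were called without heterozygous replicate 3. In mutant replicates 1 to 3 *Dmp1* was at 39.7, 12.1 and 56.4 FPKM, and *Phex*, not called, at 1.47, 2.80 and 16.2 FPKM. *Ibsp* was highest in mutant replicate 2. Of 7 genes of the suture mesenchyme 2 rose and 0 fell, *Gli1* (limma adjusted p = 0.00125) and *Axin2* (limma adjusted p = 0.0258). Both were tested only through their level in the mutants, with heterozygous means of 0.0471 and 0.412 FPKM. The suture list summed to between 947 and 1065 FPKM in heterozygous and to 749, 1189 and 1514 FPKM in mutant libraries. The part of these cell types in the differences of the members was not tested. The chondrocyte count was 2 when heterozygous replicate 1 or mutant replicate 2 was left out, 1 when it was heterozygous replicate 3 and 6 when it was mutant replicate 1. With sex as a term 5 chondrocyte genes were called, all higher. The osteoclast count dropped to 0 when heterozygous replicate 3 was left out and to 2 when it was mutant replicate 1. The suture count was 1 when any of these 4 libraries was left out.

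Among 44 other homeobox genes outside the HOX clusters, 34 were tested, 2 rose and 0 fell, with a median log2 fold change of 0.13. *Irx3*, an Iroquois factor, rose from 15.1 ± 2.86 to 28.6 ± 4.77 FPKM (SD, n = 3 each; log2 fold change 0.90, limma adjusted p = 0.0368). Several were near the threshold in either direction but not called, among them *Nkx3-2* with 1.87 (limma adjusted p = 0.0526), *Irx5* with 1.10 (limma adjusted p = 0.0546), *Lhx8* with -0.98 (limma adjusted p = 0.0549) and *Cux1* with -0.55 (limma adjusted p = 0.0576). *Barx1* had the same order of mutant libraries as *Dlx3* and *Dlx6*, at 0.403, 1.01 and 5.39 FPKM, against at most 0.310 FPKM in the heterozygous libraries (1.53, limma adjusted p = 0.192). *Nkx3-2*, *Irx5*, *Lhx8*, *Cux1* and *Barx1* were picked for their values, and *Nkx3-2* and *Barx1* were tested only through their level in the mutants. Of the whole table, 3.75% of genes tested had a log2 fold change of at least 0.9. With sex as a term the split turned, with 0 called higher and 2 lower, and with no filter on low values 0 were called. None was called without heterozygous replicate 1, heterozygous replicate 3, mutant replicate 1 or mutant replicate 2, and 4 were called higher and 3 lower without heterozygous replicate 2.

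The genes most like *Dlx5* over the 6 libraries, by the Pearson correlation of log2(FPKM + 0.5), were the merged entry *A730069N07Rik,Dlc1* (0.999), *Xrcc5* (0.997) and *Mrpl24* (0.996). Their log2 fold changes were 0.82, 0.53 and 0.35. With 13535 genes and 6 libraries of 2 genotypes, correlations this high are a description of the ranking only.

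The 250 bases before the transcription start, from the RefSeq promoter table on GRCm38.p6, were found for *Dlx1*, *Dlx2*, *Msx1* and *Msx2*. They were searched on both strands for TAATTA, the core that DLX and MSX homeodomains prefer, GGCGCC, a GC-rich SMAD element, and CAGAC, the SMAD-binding element. TAATTA and GGCGCC each read the same on both strands. The windows of *Dlx2* and *Msx2* are shown because they were the 2 with a match, which capitals mark.
Dlx2 (chr2:71546755-71547004, minus strand): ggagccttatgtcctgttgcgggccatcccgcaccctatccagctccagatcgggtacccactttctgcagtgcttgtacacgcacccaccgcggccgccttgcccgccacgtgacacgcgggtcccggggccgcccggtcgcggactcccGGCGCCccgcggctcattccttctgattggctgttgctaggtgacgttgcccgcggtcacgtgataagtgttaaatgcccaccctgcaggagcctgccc
Msx2 (chr13:53472781-53473030, minus strand): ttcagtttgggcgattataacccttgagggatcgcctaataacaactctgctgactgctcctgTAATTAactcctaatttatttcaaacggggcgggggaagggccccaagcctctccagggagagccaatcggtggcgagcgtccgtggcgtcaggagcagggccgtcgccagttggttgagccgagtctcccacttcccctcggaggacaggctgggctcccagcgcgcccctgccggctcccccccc
*Msx2* had 1 TAATTA, which 4.84% of 32851 promoters of the table hold, and *Dlx2* had 1 GGCGCC, which 9.59% hold. CAGAC was in 0 of the 4 windows and in 42.2% of all promoters. GC content was 68.0% for *Dlx1* and *Msx1*, 66.4% for *Dlx2* and 61.6% for *Msx2*. A match is a description of the letters in these windows.

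**Figure D4:**
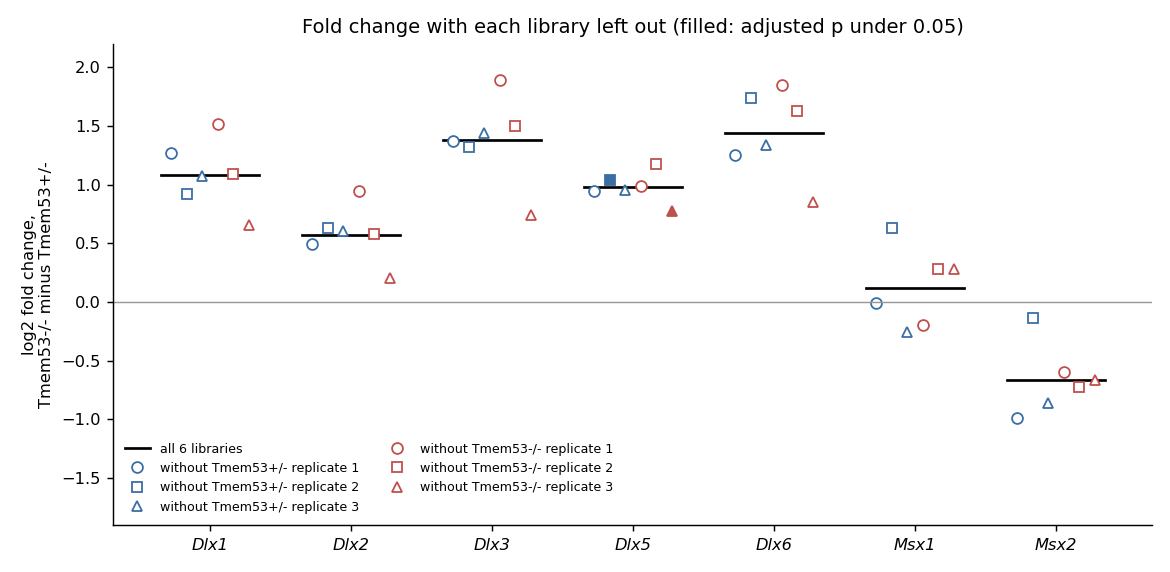
Log2 fold change of each member tested, with all 6 libraries (bars) and with each library left out in turn (symbols, filled where the limma adjusted p is under 0.05). *Dlx5* stays between 0.78 and 1.17, and every *Dlx* gene tested is lowest without mutant replicate 3.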

How the data were processed

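Calvaria were dissected into RNAlater, frozen and crushed, rRNA was removed with a Ribo-Zero kit, and directional libraries were sequenced in paired ends on a NovaSeq. Adapter trimming by the authors used the FASTX-toolkit. Reads were mapped by TopHat2 2.1.1 to mouse NCBI build37.2, and genes were quantified by Cufflinks 2.1.1 and compared by Cuffdiff 2.1.1. The deposited table holds FPKM in 1 column per pup, for 32350 entries, of which 7233 have no symbol. Not given in the sources used here are the annotation, the strand option and how libraries were scaled to each other. FPKM carry no counts, so no counting interval is given.

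Entries with a symbol that averaged 0.5 FPKM or more (13535) entered limma 3.58.1 (R 4.3.3) as log2(FPKM + 0.5), by eBayes with a trend, two-sided. Adjustment was by Benjamini-Hochberg over these entries, and an adjusted p under 0.05 made a call. Intervals are 95% confidence intervals of that fit. Single values and log2 ratios of pairs were compared by exact two-sided permutation tests in scipy 1.17.1. The procedure was tested on simulated data. Values exactly at 0 were kept, and taken as missing in 1 alternative. The other alternatives were another pseudocount (0.1 or 1), a minimum of 1 FPKM or none, quantile or upper-quartile scaling, eBayes without a trend or robust, a replicate block, sex as a term, each library left out in turn and, chosen after seeing the data, heterozygous replicate 2 and mutant replicate 3 both left out.

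Each pup was 1 library. The study describes the heterozygous pups as siblings of the mutants, and the labels do not say which pups shared a litter. The members and lists were chosen with earlier results of these data known. Named were all 8 members, the described targets, up to 3 called genes of each list in each direction by adjusted p, the nearest entries around each member, and the 3 genes most like a called member. Homeobox sequences are from GENCODE M21 (GRCm38) and promoters from RefSeq (GRCm38.p6). Table coordinates are of NCBI build37.2, and none was converted. Some items are not reported here.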

Additional observations from a re-analysis of the deposited data

How the results depend on the processing

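Of 18 alternatives, *Dlx5* stayed called in 11, and its log2 fold change ranged from 0.78 to 1.17 (limma adjusted p 0.0142 to 0.151). Its call was lost with no filter on low values (0.98, adjusted p = 0.0641), with the replicate block (0.98, adjusted p = 0.114), with sex as a term (0.86) and without 4 of the libraries. Members called went from 1 to 0 with no filter and with the block, from 0 to 1 over the fits without 1 library, and to 2, *Dlx5* and *Dlx6*, with heterozygous replicate 2 and mutant replicate 3 both left out, an alternative chosen after seeing the data. The cause was not tested. Genes called in all went from 956 to 621 with no filter, 30 with the block and 3675 with both libraries left out, and from 14 to 2216 without 1 library. Same-numbered libraries did not deviate together (correlations of 0.05, -0.23 and -0.14). With so few libraries per group, this cannot decide whether same-numbered pups were paired, and the labels do not say. With the block, 0 genes of the BMP, described target, osteoblast, osteoclast and other homeobox lists were called, and 1 each of the chondrocyte and suture lists. *Msx1*, never called, turned to -0.89 with sex as a term and lay between -0.25 and 0.63 over the fits that left 1 library out. It was -0.25 when that was heterozygous replicate 3, -0.19 for mutant replicate 1 and -0.01 for heterozygous replicate 1. *Dlx1*, *Dlx2* and *Dlx3* kept their direction and were not called in any alternative run, and the 4 pair ratios kept theirs. Depth in fragments is not known, and *Dlx3* and *Dlx4* lie near the lowest steps of the table.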
